A study of Mus musculus with 18 samples.

Results

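In mouse mammary tumors, 10 genes known from luminal progenitor cells of the mammary gland were followed, namely Kit, Elf5, Aldh1a3, Cd14, Sox10, Ltf, Lcn2, Lbp, Ehf and Prom1. They were taken by symbol from the deposited table of expected counts, where each of the 10 has a single row among 55450 genes, and all 10 passed the filter on low counts that left 19186 genes. Messenger RNA was measured in 18 female mice of C57Bl/6 J background, with 1 library per mouse. B1/P/Rbf tumors (n = 5) carried Brca1fl/fl, Trp53fl/fl and the transgene TgK18GT121 (Tg/+). B1/P tumors (n = 5) carried Brca1fl/fl and Trp53fl/fl. P/Rbf tumors (n = 5) carried Trp53fl/fl and TgK18GT121 (Tg/+), and the controls (n = 3) were glands of wild type mice. B1/P/Rbf, with all 3 alterations, is also called the triple model. All 3 tumor groups thus share floxed Trp53 alleles. The transgene encodes T121, a fragment of the SV40 large T antigen that binds and inhibits the pocket proteins pRb, p107 and p130 (together Rbf), and it is driven by the keratin 18 promoter, which is active in epithelial cells. Cre was delivered by an adenovirus with a CMV promoter, injected through the nipple into the ducts of adult females, so it was not restricted to a single epithelial cell type. Whole tumors and whole glands were used, so the values below are those of mixed tissue.

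The mammary epithelium has an outer basal layer and an inner luminal layer. Hormone-sensing luminal cells carry the estrogen and progesterone receptors, while luminal progenitors mostly lack these receptors, divide, and give rise to the milk-secreting alveolar cells. The receptor tyrosine kinase Kit and the transcription factor Elf5 mark the progenitors, which also express secreted defence proteins such as lactotransferrin and lipocalin 2. Loss of BRCA1 function has long been linked to this compartment as a source of basal-like tumors.

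The 10 genes did not move as a group. Of the 10, Prom1 rose and Sox10 fell in B1/P/Rbf tumors against B1/P tumors, where the test called 16.7% of the 19186 genes, 7.36% as higher and 9.29% as lower (edgeR quasi-likelihood test, Benjamini-Hochberg adjusted p of 0.05 or less, used throughout). Prom1 rose while Sox10 and Kit fell in P/Rbf against B1/P tumors, with 19.2% of genes called, 8.43% higher and 10.8% lower. In the comparison of B1/P/Rbf with P/Rbf none of the 10 was called by edgeR and 0.281% of all genes were, 0.219% higher and 0.0625% lower, although 3 members, Kit, Lbp and Ehf, had an unadjusted p under 0.05. By DESeq2, 4, 5 and 2 of the 10 were called in these comparisons, against 23.0% (10.2% higher, 12.8% lower), 26.2% (11.8% higher, 14.4% lower) and 5.35% of all genes, and 4 in B1/P/Rbf against gland, against 41.8%. RNA of 8 epithelial markers (Epcam, Cdh1, Krt8, Krt18, Krt7, Cldn3, Cldn4 and Cldn7) differed between the groups. The list holds no basal keratin. Basal markers, Krt5, Krt14 and Krt17 among them, had a mean log2 CPM of 5.67 in B1/P, 3.25 in B1/P/Rbf and 3.59 in P/Rbf tumors. Whether epithelial content or cell type lowered the list in B1/P was not tested. With libraries scaled to epithelial markers, 7 and 8 members were called against B1/P. Of all genes, 76.7% were called in B1/P/Rbf (1.64% higher, 75.1% lower) and 85.0% in P/Rbf (0.876% higher, 84.1% lower). The first and second of these comparisons share the B1/P tumors, and the values are given side by side for that reason. The median log2 fold change of the 10 was -0.45 in B1/P/Rbf against B1/P (all genes -0.06), -1.01 in P/Rbf against B1/P (all genes -0.05) and 0.60 in B1/P/Rbf against P/Rbf (all genes -0.01). With scaling to epithelial markers, the medians of all genes against B1/P were -2.10 in B1/P/Rbf and -2.51 in P/Rbf. Values below under that scaling are relative to such shifts.

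Against the normal gland, Sox10 alone of the 10 was called in B1/P/Rbf tumors, and it fell, with 37.0% of genes called in that comparison, 17.1% higher and 20.0% lower. Sox10, Ehf and Lcn2 rose in B1/P tumors, where 33.8% of genes were called, 16.8% higher and 16.9% lower. Ehf and Lcn2 rose and Sox10 fell in P/Rbf tumors, where 37.7% were called, 17.4% higher and 20.3% lower. Elf5, Aldh1a3, Cd14, Ltf and Lbp were called in no comparison. These calls, and those below where no other setting is named, are from edgeR with all groups fitted. The 3 glands lay close together for all 10 genes, with SDs of log2 CPM from 0.09 to 0.46, whereas tumors of the same genotype ranged widely. CPM here are counts scaled to library size with TMM factors, and log2 CPM use a prior count of 2.

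**Figure D1:**
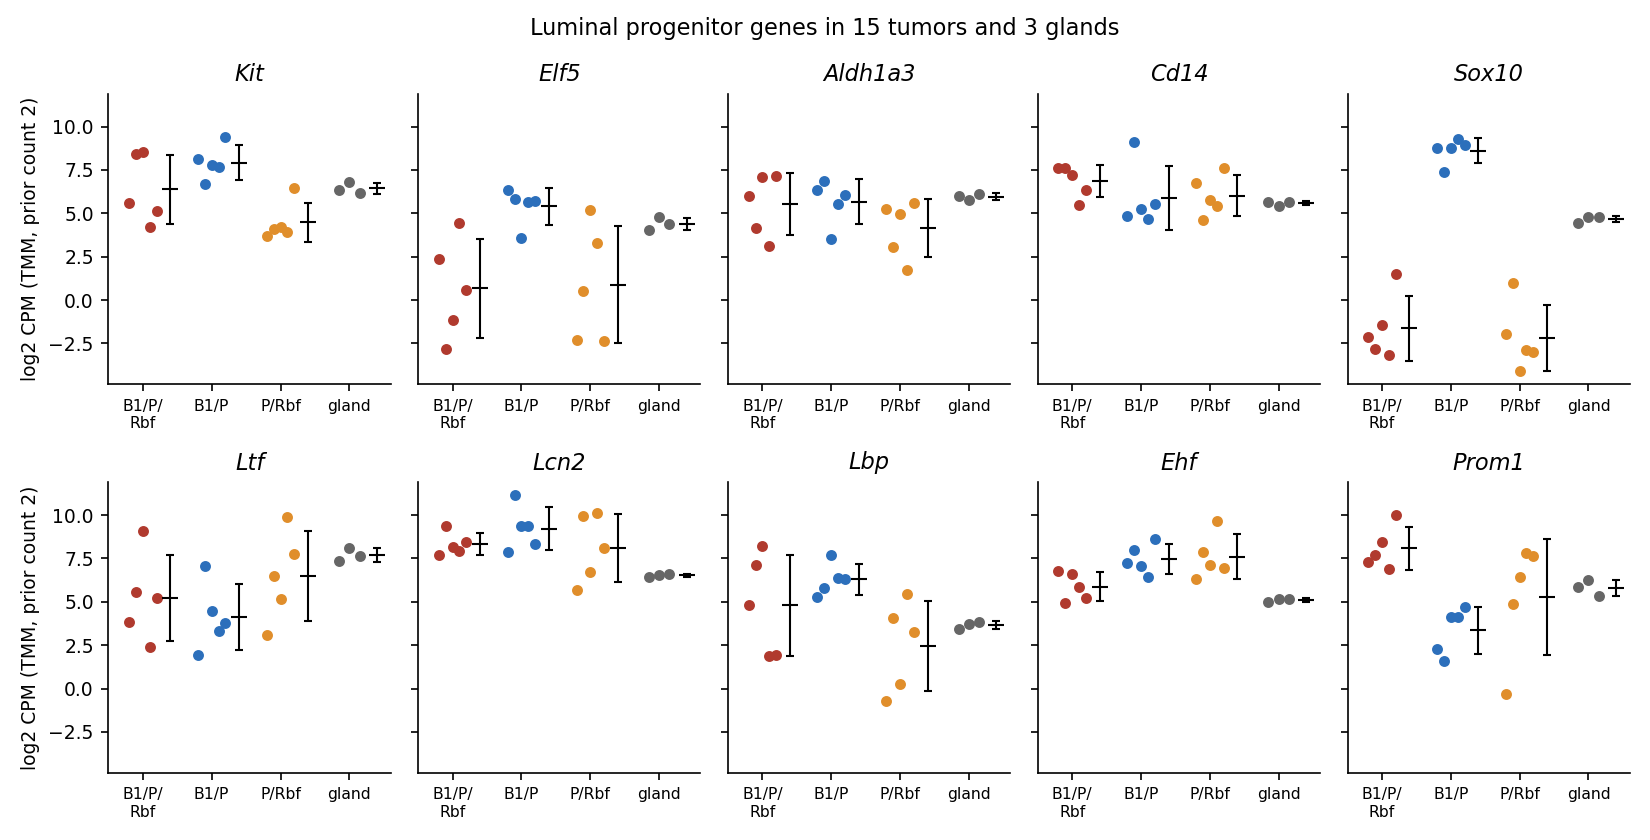
Log2 CPM of each gene (y axis) in every library, by group (x axis); each point is 1 mouse, and the black dash and bars to the right give the mean and SD of 5 tumors or 3 glands. Sox10 separates the B1/P tumors, from 164 to 612 CPM, from every tumor with T121, none of which was above 2.73 CPM.

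**Figure D2:**
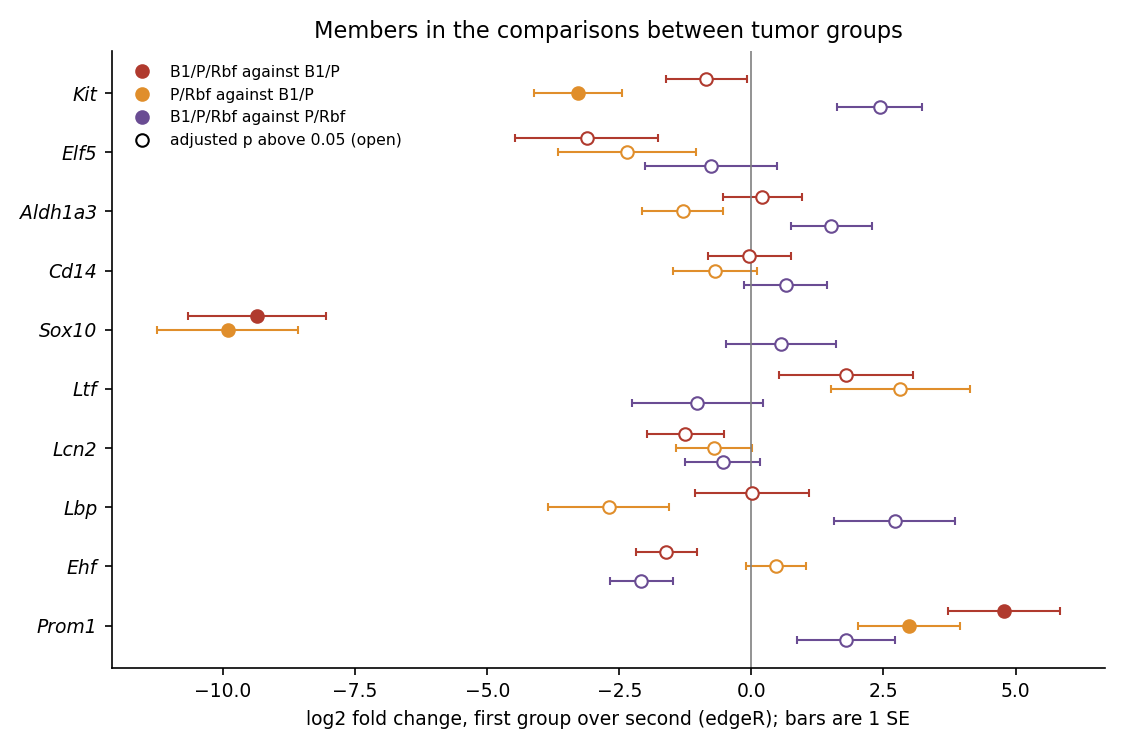
Log2 fold changes from edgeR (x axis, bars are 1 SE) of the 10 genes in the 3 comparisons between tumor groups, with filled points where the adjusted p was 0.05 or less. Filled points are Sox10 and Prom1 against B1/P in both groups with T121 and Kit in P/Rbf against B1/P.

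Sequencing depth was even, with totals of 27661173 to 37794889 expected counts per library, so that except at the lowest levels the spread between mice and not counting error limited the precision. Brca1 had a mean of 29.8 ± 8.97 CPM (SD, n = 5) in B1/P/Rbf tumors. Means were 15.3 CPM for B1/P, 79.0 CPM for P/Rbf, whose Brca1 is not floxed, and 5.45 CPM for glands. The highest Brca1 level among the floxed tumors was 45.0 CPM in B1/P/Rbf tumor 3, about that of the lowest P/Rbf tumor (44.9 CPM). For this same floxed tumor the study reports only partial loss of Brca1 expression by RT-qPCR, and loss in the other floxed tumors. B1/P/Rbf tumor 3 also had the highest Kit, Ltf and Lbp of its group (373, 541 and 297 CPM), but not the highest level of the other genes followed. Whether its Brca1 level had a part in these was not tested. Floxed alleles lose only some exons, so counts over the whole gene check the deletion only in part. Trp53 was between 6.75 and 24.3 CPM in tumors and between 54.4 and 71.8 CPM in glands. Epithelial markers were unequal between the groups. Their summed level was 815 to 2642 CPM in B1/P tumors, 3166 to 6235 CPM in B1/P/Rbf tumors, 4974 to 9229 CPM in P/Rbf tumors and 1655 to 2284 CPM in glands. B1/P tumor 3 had the lowest value of these but the highest sum of basal cell markers of all libraries (2301 CPM). B1/P tumor 2 had the most RNA of neutrophil and macrophage markers (544 and 3576 CPM). In whole tissue, fewer cells of a type and less RNA per cell cannot be told apart. Adipocyte markers summed to at least 10276 CPM in glands and at most 214 CPM in tumors, so every comparison with the gland is also one with fat-rich tissue.

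Sox10, a transcription factor of the SoxE family needed in the neural crest and expressed in progenitors of the mammary gland, had the largest log2 fold changes of the 10 against B1/P. The gene lies at chr15:79154908-79165240 on the minus strand (GRCm38). Its levels were 439, 164, 428, 612 and 493 CPM in B1/P tumors 1 to 5. In B1/P/Rbf tumors they were 0.170, 0.0809, 0.303, 0.0507 and 2.73 CPM. P/Rbf tumors had 0.201, 1.89, 0, 0.0790 and 0.0681 CPM, and the glands 22.0, 27.4 and 27.1 CPM. All B1/P tumors were thus above all glands, and all glands above all tumors with T121, without overlap. No more than 84 counts were found in any tumor with T121, against at least 5521 in every B1/P tumor. The log2 fold change was -9.35 ± 1.3 (SE; adjusted p = 0.00042) in B1/P/Rbf and -9.91 ± 1.34 (adjusted p = 0.00031) in P/Rbf tumors against B1/P. Neither call was lost in any setting in which Sox10 was tested. Against the gland, B1/P tumors were higher by 4.07 ± 1.27 (adjusted p = 0.020), while B1/P/Rbf tumors were lower by a log2 fold change of -5.29 ± 1.15 (adjusted p = 0.0018) and P/Rbf tumors by -5.85 ± 1.2 (adjusted p = 0.00096). The rise in B1/P tumors was no longer called without gland 1, 2 or 3 (log2 fold changes from 3.97 to 4.16, adjusted p from 0.068 to 0.079), and the fall in B1/P/Rbf against gland was lost with a model term for 2 inferred library sets (-4.60 ± 1.86, adjusted p = 0.091).

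The other SoxE genes gave a contrast. Sox8 fell with Sox10, from a mean of 14.5 CPM in B1/P to 0.0604 CPM in B1/P/Rbf tumors (log2 fold change -7.81, adjusted p = 0.00020) and 0.0780 CPM in P/Rbf tumors (-7.49, adjusted p = 0.00021). Sox9, a regulator of luminal and stem-like cells, had means of 70.2 CPM in B1/P, 97.3 CPM in P/Rbf and 60.6 CPM in the triple model and was not called between tumor groups. With scaling to epithelial markers Sox9 was called lower in both groups with T121 (log2 fold change -2.02, adjusted p = 0.0090, and -1.89, adjusted p = 0.011). The medians of all genes were then -2.10 and -2.51, larger falls than those of Sox9. Of 10 basal cell markers, 3 fell in B1/P/Rbf and 2 in P/Rbf against B1/P (background 9.29% and 10.8% lower), and by DESeq2 6 and 2 were called lower (background 12.8% and 14.4%). Among them in both were Oxtr, the oxytocin receptor, and Trp63, the p63 factor of basal cells, whose calls were lost with the library-set term and without B1/P tumor 3. Their summed level was 599 to 2301 CPM in B1/P, 78.7 to 388 CPM in the triple model, 113 to 1568 CPM in P/Rbf tumors and 453 to 632 CPM in glands, so that P/Rbf tumors overlapped with B1/P, and their part in the Sox10 levels was not tested. Sox10 is also a gene of Schwann cells and melanocytes, so the markers of both were examined. Of 7 Schwann cell markers, 4 fell and 1 rose in B1/P/Rbf against B1/P (background 9.29% lower and 7.36% higher), and 5 fell in P/Rbf against B1/P (background 10.8% lower). With the library-set term 2 and 4 fell (6.92% and 7.24% of all genes). Those that fell included Cdh19, a cadherin of neural crest derivatives (4.16 CPM in B1/P, 0.0748 and 0.0310 CPM in B1/P/Rbf and P/Rbf), and S100b (3.19, 0.372 and 0.134 CPM). Foxd3, a transcription factor of the neural crest, was at 2 counts or fewer in every tumor with T121, and its B1/P mean of 3.91 CPM was at least 40.2-fold higher than the floor of 3 counts per library in B1/P/Rbf and at least 38.3-fold higher than that in P/Rbf. Foxd3 ranged from 0 to 414 counts among the B1/P tumors themselves. The Schwann cell markers together summed to 36.4 to 139 CPM in B1/P tumors, 81.4 to 170 CPM in the triple model and 40.4 to 132 CPM in P/Rbf tumors, ranges that overlap. Mbp, the marker of highest mean in tumors, had means of 41.6, 106 and 72.7 CPM in that order. The mean log2 CPM of the list was 1.67, 0.13 and -0.32. Among tumors of the same genotype, Sox10 and these markers gave Pearson's r of 0.10 and Spearman's rho of 0.31 (adjusted permutation p = 0.70 and 0.32). Their part in the Sox10 levels was not tested. Of 5 melanocyte genes, Dct, Tyr and Tyrp1 had at most 1 count in any tumor, Mlana had at most 12 in B1/P and at most 2 in tumors with T121, and Pmel had 12 to 91 in every tumor.

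**Figure D3:**
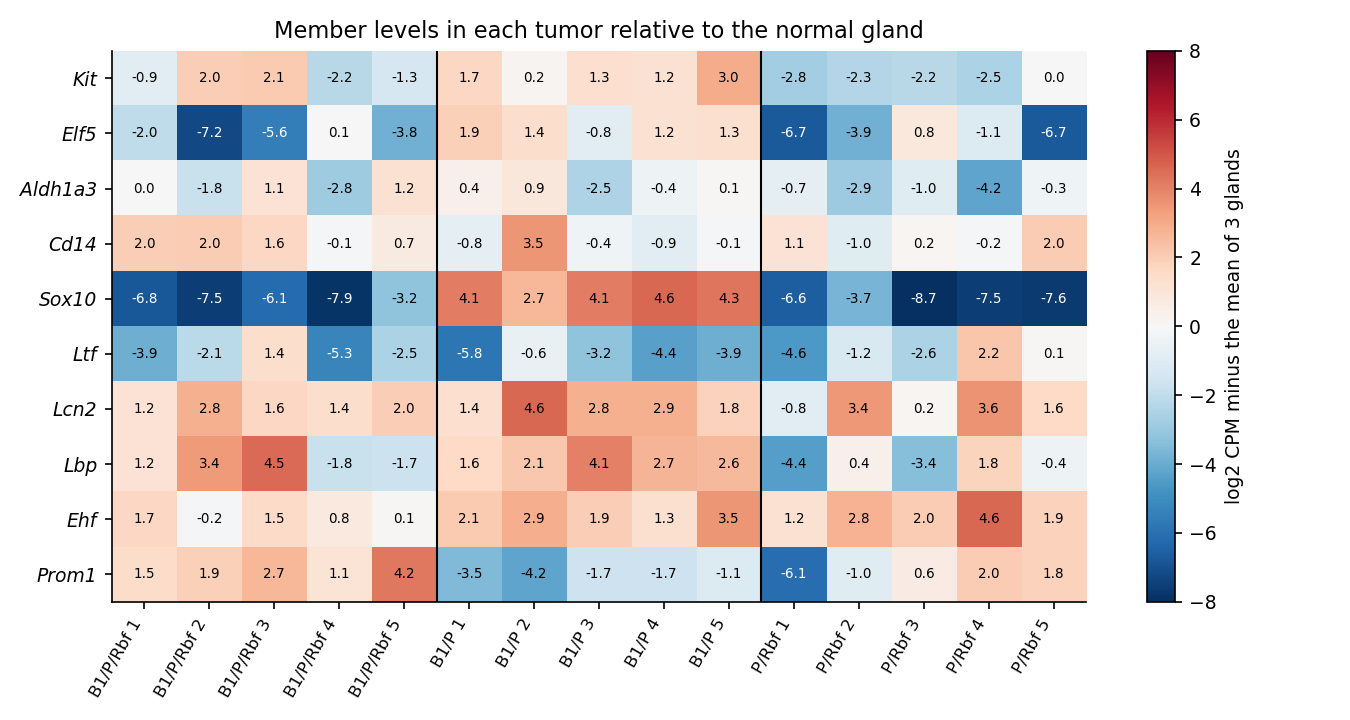
Log2 CPM of each gene (rows) in each of 15 tumors (columns) minus the mean of the 3 glands; red is above and blue below the gland. Sox10 is above the gland in all 5 B1/P tumors and below it in all 10 tumors with T121, while Prom1 shows the opposite in B1/P and B1/P/Rbf tumors and both directions in P/Rbf tumors.

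Elf5 and Ehf encode ETS factors of the epithelium-specific group. Elf5 drives alveolar differentiation and Ehf acts in many luminal and glandular epithelia. They are neighbours on chromosome 2, Ehf at chr2:103263433-103303278 on the minus strand and Elf5 at chr2:103411688-103450989 on the plus strand, 108409 bases apart with 3 other annotated genes between them. Their levels nevertheless did not follow the same order over the groups. Among tumors of the same genotype, Elf5 and Ehf gave Pearson's r of 0.42 and Spearman's rho of 0.48 (adjusted permutation p = 0.31 and 0.17). With each library left out in turn, r ran from 0.312 to 0.596.

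Elf5 was at 79.8, 56.3, 11.8, 49.2 and 51.3 CPM in B1/P tumors. The values in B1/P/Rbf tumors were 5.02, 0.0809, 0.386, 21.7 and 1.43 CPM, and those in P/Rbf tumors 0.144, 1.39, 37.2, 9.77 and 0.136 CPM. Glands had 16.3, 27.1 and 20.6 CPM. In each group with T121, 4 of 5 tumors were below every B1/P tumor and 1 overlapped with them, B1/P/Rbf tumor 4 and P/Rbf tumor 3. The log2 fold changes against B1/P were -3.12 ± 1.35 (adjusted p = 0.12) and -2.35 ± 1.31 (adjusted p = 0.21), so neither was called. The SD of log2 CPM of Elf5 was 2.86 in B1/P/Rbf and 3.37 in P/Rbf tumors, against a median of 0.52 and 0.58 over all genes tested. In B1/P/Rbf against B1/P the fall was called by DESeq2 (adjusted p = 0.032), by limma-voom (0.015), with scaling to epithelial markers (0.0041) and without B1/P/Rbf tumor 4 (0.039). In P/Rbf against B1/P it was called by limma-voom (0.022) and with that scaling (0.0062). B1/P/Rbf tumors were not called against gland (-1.90 on the log2 scale, adjusted p = 0.31), except by limma-voom (-3.67, adjusted p = 0.044) and with that scaling (-3.50, adjusted p = 0.039). B1/P tumor 3, with the lowest sum of epithelial markers and the highest of basal markers (815 and 2301 CPM), had the lowest Elf5 of its group.

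Ehf was at 108, 29.9, 97.9, 58.3 and 36.7 CPM in B1/P/Rbf tumors and at 148, 254, 132, 84.6 and 392 CPM in B1/P tumors. P/Rbf tumors had 79.7, 232, 140, 822 and 125 CPM and glands 31.1, 35.0 and 36.2 CPM. Every B1/P and every P/Rbf tumor was above every gland, while B1/P/Rbf tumors overlapped with the glands. The rise against gland was 2.57 ± 0.74 on the log2 scale in B1/P (adjusted p = 0.013) and 3.04 ± 0.76 in P/Rbf tumors (adjusted p = 0.0046). In B1/P/Rbf tumors the log2 fold change against gland was 0.95 ± 0.68 and was not called (adjusted p = 0.29). Without gland 1 the log2 fold change in B1/P was 2.51 (adjusted p = 0.052), and scaled to epithelial markers that in P/Rbf was 1.19 (adjusted p = 0.15). B1/P/Rbf tumors had less Ehf than B1/P tumors by a log2 fold change of -1.61 ± 0.58 (adjusted p = 0.067) and than P/Rbf tumors by -2.08 ± 0.59 (adjusted p = 0.11), differences that DESeq2 called (adjusted p = 0.026 and 0.012). By edgeR the former was called with only those groups fitted (adjusted p = 0.0497), without P/Rbf tumor 4 (0.019) and with scaling to epithelial markers (0.00050). Under that scaling Ehf was also called lower in P/Rbf than in B1/P (log2 fold change -1.60, adjusted p = 0.020), where it was 0.47 without it. The scaled median of all genes in that comparison was -2.51, a larger fall than that of Ehf.

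Of 12 genes chosen as related ETS factors and regulators of alveolar and luminal differentiation, 6 rose and none fell in B1/P/Rbf against B1/P (background 7.36% higher), and 8 rose and none fell in P/Rbf against B1/P (background 8.43% higher). With the library-set term 5 and 2 rose (5.52% and 3.22% of all genes). Scaled to epithelial markers 1 rose and 3 fell in B1/P/Rbf, where 1.64% of all genes rose and 75.1% fell, and none rose and 6 fell in P/Rbf, where 0.876% rose and 84.1% fell. Gata3, the master factor of the luminal lineage, rose from 25.6 CPM in B1/P to 288 CPM in B1/P/Rbf (log2 fold change 3.49, adjusted p = 0.0012) and 138 CPM in P/Rbf tumors (2.42, adjusted p = 0.0072). Elf3, another epithelial ETS factor, rose by 1.86 (adjusted p = 0.0037) and 1.83 (adjusted p = 0.0041). Stat5a, which carries the prolactin signal upstream of alveolar genes, rose by 3.05 in B1/P/Rbf (adjusted p = 0.0040), and Elf1, a broadly expressed ETS factor, rose by 1.14 in P/Rbf tumors (adjusted p = 0.0016). With scaling to epithelial markers Gata3 was still called in B1/P/Rbf (1.57, adjusted p = 0.037), while it was at -0.07 in P/Rbf and Elf1 was called lower there (-1.42, adjusted p = 0.020). The scaled median of all genes in P/Rbf against B1/P was -2.51, a larger fall than that of Elf1. Epithelial markers rose in the same comparisons, 3 of 8 in B1/P/Rbf and 6 of 8 in P/Rbf, and their summed level is that given above. Of 9 hormone-sensing genes, 4 and 5 rose (background 7.36% and 8.43%), against 2 and none with that scaling (background 1.64% and 0.876%), under which 1 fell in B1/P/Rbf, and against 4 and 1 with the library-set term (5.52% and 3.22%). Esr1, the estrogen receptor, rose by 4.10 (adjusted p = 0.00030) in B1/P/Rbf and 2.33 (adjusted p = 0.0051) in P/Rbf tumors, the latter being -0.20 with scaling to epithelial markers and not called with the set term (adjusted p = 0.10).

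Kit, the receptor of stem cell factor, lies at chr5:75574916-75656722 on the plus strand. Levels were 275, 103, 219, 202 and 677 CPM in B1/P tumors and 12.8, 17.3, 18.7, 15.2 and 87.3 CPM in P/Rbf tumors. B1/P/Rbf tumors had 48.0, 342, 373, 18.7 and 34.3 CPM and glands 80.5, 111 and 72.5 CPM. Every P/Rbf tumor was below every B1/P tumor, whereas B1/P/Rbf tumors fell on both sides, with tumors 2 and 3 in the range of B1/P and the others below it. Kit fell by 3.29 ± 0.84 on the log2 scale in P/Rbf against B1/P (adjusted p = 0.012), and it was called in every setting in which it was tested. In B1/P/Rbf against B1/P the log2 fold change was -0.85 ± 0.77 (adjusted p = 0.48), and between B1/P/Rbf and P/Rbf it was 2.43 ± 0.81 (adjusted p = 0.15). The former was called with scaling to epithelial markers (-2.80, adjusted p = 0.0044) and the latter by DESeq2 (adjusted p = 0.028). Without P/Rbf tumor 5, the highest of its group, P/Rbf tumors were also called lower than glands (-2.46 on the log2 scale, adjusted p = 0.033), as they were with scaling to epithelial markers (-3.53, adjusted p = 0.0023). B1/P tumors were called higher than glands with only those groups fitted (1.74, adjusted p = 0.040).

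Kit is also the receptor that mast cells depend on. Mast cell markers summed to 1.01 to 59.3 CPM in B1/P tumors, 2.13 to 32.3 CPM in P/Rbf tumors, 3.65 to 39.7 CPM in B1/P/Rbf tumors and 7.85 to 34.0 CPM in glands. The highest sum was in B1/P tumor 2, which had the least Kit of its group. The proteases Cma1 and Cpa3 averaged 0.798 and 0.635 CPM in B1/P tumors, against 4.46 and 2.22 CPM in glands. Hdc, the marker of highest mean in tumors, went the other way, with 13.8 CPM in B1/P tumors (at most 48.6 CPM) and 2.07 CPM in glands. None of the 5 markers that passed the filter was called between tumor groups, except that with scaling to epithelial markers all 5 were lower in P/Rbf than in B1/P, as were 84.1% of all genes. Among tumors of the same genotype, Kit and these markers gave r of -0.57 (rho -0.48, adjusted permutation p = 0.087 and 0.17), where r passed without B1/P/Rbf tumor 1 (0.035). Kit and Sox10 gave r of -0.090 (rho 0.021, adjusted permutation p = 0.84 and 0.95). Of 14 genes of Kit signalling, none rose, 5 fell in B1/P/Rbf and 3 fell in P/Rbf against B1/P, where 9.29% and 10.8% of all genes fell. With the library-set term 2 fell in each, and 6.92% and 7.24% of all genes. They included the kinase Src (log2 fold change -1.26, adjusted p = 0.0050, and -0.79, adjusted p = 0.048) and the adaptor Sh2b3 (-1.14, adjusted p = 0.0078, and -1.40, adjusted p = 0.0025). The ligand gene Kitl had means of 139 CPM in B1/P tumors against 55.6 (B1/P/Rbf) and 53.5 CPM (P/Rbf), and was not called (adjusted p = 0.092 and 0.073).

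Prom1, which encodes the membrane glycoprotein prominin 1 (CD133), lies at chr5:43993620-44102032 on the minus strand. It overlaps 2 further annotated genes, neither with more than 23 counts in a library. B1/P/Rbf tumors had 157, 211, 355, 121 and 1036 CPM and B1/P tumors 4.86, 2.90, 17.6, 17.3 and 25.7 CPM. P/Rbf tumors had 0.748, 28.9, 87.5, 225 and 200 CPM, and glands 57.1, 76.0 and 40.3 CPM. Every B1/P/Rbf tumor was above every gland and every B1/P tumor below every gland, while P/Rbf tumors lay on both sides of the glands, up to 225 CPM. Against gland, the log2 fold changes of 2.70 ± 1.2 in B1/P/Rbf and -2.08 ± 1.02 in B1/P were not called (adjusted p = 0.081 and 0.13), and both were without P/Rbf tumor 1 (0.020 and 0.047) and with only the groups compared (0.019 and 0.030). DESeq2 called the former (0.018). Prom1 rose by 4.78 ± 1.05 on the log2 scale in B1/P/Rbf against B1/P (adjusted p = 0.0060), and in every setting in which it was tested. In P/Rbf against B1/P it rose by 2.99 ± 0.97 (adjusted p = 0.040), with 4 of 5 tumors above all B1/P tumors and P/Rbf tumor 1 below them all. That call was lost without any of B1/P tumors 1 to 4 or P/Rbf tumors 3, 4 or 5, in limma-voom (adjusted p = 0.35), with only these groups fitted (0.096), with the library-set term (0.29) and with scaling to epithelial markers, which left a log2 fold change of 0.26 (adjusted p = 0.80). The related gene Prom2 had means of 90.3 CPM in B1/P, 69.1 CPM in P/Rbf and 66.6 CPM in the triple model and was not called, except as lower in both groups with T121 with that scaling (log2 fold change -3.34 in P/Rbf and -3.23 in the triple model).

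An earlier analysis, not shown here, had inferred from the fold changes the study lists that its model may have held a term for 2 sets of libraries. The methods state no such term. The labels name no such sets, and by the methods all 18 libraries shared a sequencing pool, so what the sets stand for is not known. Set 1 holds B1/P tumors 1 to 3 with the 5 B1/P/Rbf tumors, and set 2 holds the glands, B1/P tumors 4 and 5 and the P/Rbf tumors. The triple model can therefore be compared within a set with B1/P only, and its comparisons with P/Rbf tumors and glands have no within-set value, so that a set term in them rests on the B1/P tumors, which lie in both sets. Within set 1, Sox10 was lower by 9.92 and Prom1 higher by 5.42 in B1/P/Rbf tumors, relative to B1/P, as differences of mean log2 CPM without a test, and neither gene overlapped. Within set 2, Sox10 was lower by 11.28 and Kit lower by 4.05 in P/Rbf than in B1/P tumors, again without overlap, while Prom1 was higher by 0.89 with overlap.

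Aldh1a3, the aldehyde dehydrogenase that makes retinoic acid in mammary progenitors, lies at chr7:66390890-66427517 on the minus strand. It was at 64.1, 18.0, 138, 8.75 and 143 CPM in B1/P/Rbf tumors. B1/P tumors had 81.9, 115, 11.3, 46.3 and 67.4 CPM, and P/Rbf tumors 38.6, 8.33, 31.3, 3.24 and 49.1 CPM. Glands had 64.1, 54.8 and 69.5 CPM. All 5 P/Rbf tumors were below every gland, yet the log2 fold change of -1.27 ± 0.85 was not called (adjusted p = 0.25), and the other groups lay on both sides of the glands. With scaling to epithelial markers Aldh1a3 was called lower in P/Rbf, by log2 fold changes of -3.31 against gland (adjusted p = 0.0016) and -3.15 against B1/P (0.00073). Of 13 other genes of retinoic acid supply and response, 5 fell and 1 rose in B1/P/Rbf against B1/P, and 1 fell in P/Rbf against B1/P (all genes 9.29% lower and 7.36% higher, and 10.8% lower). By DESeq2, 4 and 3 fell, where 12.8% and 14.4% of all genes did. With scaling to epithelial markers 12 fell and none rose in each, where 75.1% and 84.1% of all genes fell. Stra6, the retinol uptake receptor, fell from 74.6 to 1.80 CPM in B1/P/Rbf (log2 fold change -5.37, adjusted p = 0.0021). Cyp26b1, which degrades retinoic acid, fell from 39.2 CPM to 4.34 CPM in B1/P/Rbf (-3.17, adjusted p = 0.0031) and 2.99 CPM in P/Rbf tumors (-3.71, adjusted p = 0.0015). Rarg, a retinoic acid receptor, fell in B1/P/Rbf (-1.42, adjusted p = 0.0071), and Aldh1a2, a sister enzyme, rose from 2.29 to 8.22 CPM (1.84, adjusted p = 0.048). The rise of Aldh1a2 was lost without B1/P tumor 2 or 3 and with scaling to epithelial markers.

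Lcn2, Ltf, Lbp and Cd14 serve innate defence. Lipocalin 2 binds the siderophores with which bacteria take up iron, lactotransferrin binds iron itself, and lipopolysaccharide binding protein hands endotoxin to Cd14, the co-receptor of Tlr4. All 4 also belong to other cells, Ltf and Lcn2 to neutrophil granules and Cd14 to macrophages. The promoter table of RefSeq (GRCm38.p6) held 5 of the 10 genes, Kit, Elf5, Ltf, Lcn2 and Prom1. In the 250 bases before their annotated starts, both strands were searched for TTGCNNAA (TTNNGCAA on the other strand), the core letters of sites of C/EBP factors, which act in the acute phase response, because the C/EBP genes Cebpb and Cebpd fell in both groups with T121 against B1/P. The 5 genes have 8 such windows, of which 4, in 3 genes, hold it, and 9.57% of 32536 windows do. The 8 are not independent, since the 2 windows of Kit overlap almost fully and 2 of the 4 with a match are from Elf5. Lcn2, Ltf and Elf5, which hold the matches, were not called between tumor groups by edgeR with all groups fitted. Of 5 motifs searched, NF-kappaB, STAT5 (TTCNNNGAA) and SoxE (AACAATG) letters were in none of the 8, and in 3.87%, 7.04% and 3.21% of all windows. The stretches are shown 5′ to 3′ on the strand of the gene, with the match in capitals, and in Lcn2 also the adjoining ETS letters CTTCCTG, found on either strand in 10.8% of windows and also in those of Ltf and Prom1.
Lcn2, chr2:32387937-32387966 (minus): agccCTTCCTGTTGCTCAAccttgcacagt
Ltf, chr9:111019206-111019235 (plus): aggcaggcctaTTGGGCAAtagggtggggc
Elf5 first start, chr2:103411852-103411881 (plus): gagtcagagtcTTGCCTAAccctctggctg
Elf5 second start, chr2:103423818-103423845 (plus): ccctccagcTTGCTCAAcggagactgct
The matches start 216 bases before the RefSeq start of Lcn2, 75 before that of Ltf, and 235 and 241 before those of Elf5. These starts differ from the ends of the GENCODE M21 gene spans given here. By those spans the Lcn2 stretch and both Elf5 stretches lie inside the genes, and only that of Ltf lies upstream of its gene. No binding was measured here, and the matches are descriptions of letters.

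Lcn2, at chr2:32384633-32388252, was at 206, 648, 287, 241 and 355 CPM in B1/P/Rbf tumors and at 235, 2257, 648, 671 and 325 CPM in B1/P tumors. P/Rbf tumors had 51.4, 999, 103, 1103 and 274 CPM and glands 86.0, 92.4 and 96.8 CPM. All 10 tumors of the B1/P/Rbf and B1/P groups were above every gland, as were 4 of 5 P/Rbf tumors. Lcn2 rose by 3.17 ± 0.96 on the log2 scale in B1/P (adjusted p = 0.017) and by 2.46 ± 0.92 in P/Rbf tumors (adjusted p = 0.044) against gland, and the log2 fold change was 1.92 ± 0.89 in B1/P/Rbf tumors (adjusted p = 0.10), called by DESeq2 (0.043) and with only those groups fitted (0.0038). Leaving out gland 1, 2 or 3 ended both calls. The rise in B1/P was also lost with the library-set term (adjusted p = 0.092), and that in P/Rbf without tumor 2 or 4 of its group, without B1/P/Rbf tumor 3 or 5, without B1/P tumor 4 and in 4 other settings. In these 4 the log2 fold change in P/Rbf was 0.67 with scaling to epithelial markers and 1.46 by limma-voom. It was 2.10 with genes kept only at a log2 CPM of 6 or more, and 2.46 with only those groups fitted. No difference between tumor groups was called, except that Lcn2 was lower in both groups with T121 than in B1/P with scaling to epithelial markers (adjusted p = 0.0040 and 0.0038).

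Ltf, at chr9:111019271-111042767 on the plus strand, varied widely among tumors of each genotype. B1/P/Rbf tumors had 14.0, 47.5, 541, 5.30 and 36.6 CPM and B1/P tumors 3.75, 136, 22.5, 10.1 and 13.7 CPM. P/Rbf tumors had 8.40, 88.3, 35.4, 958 and 220 CPM and glands 165, 279 and 196 CPM. Every B1/P tumor was below every gland, by a log2 fold change of -2.52 ± 1.40 (adjusted p = 0.18), and only B1/P/Rbf tumor 3 and P/Rbf tumor 4 were above all glands. Without B1/P tumor 2, the lower level in B1/P was called against gland (-4.09 on the log2 scale, adjusted p = 0.043) and the higher level in P/Rbf was called against B1/P (4.39, adjusted p = 0.041, against 2.82 and 0.14 with it). DESeq2 called the latter with all tumors (adjusted p = 0.041).

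Ltf was set beside neutrophil markers among tumors of the same genotype. Neutrophil markers summed to 8.20 to 544 CPM in B1/P, 13.6 to 117 CPM in B1/P/Rbf and 6.59 to 55.9 CPM in P/Rbf tumors, and to at most 7.49 CPM in glands, where Ngp, Mpo, Retnlg, Mmp8 and Ly6g were at 3 counts or fewer, Elane, Csf3r and Cxcr2 were at 27 to 82 counts, and Ltf was at 165 CPM or more. Over the 15 tumors, after subtraction of each genotype's mean log2 CPM, Pearson's r between Ltf and the markers was 0.65 (p = 0.0025, adjusted p = 0.020) and Spearman's rho was 0.70 (p = 0.0030, adjusted p = 0.024), by two-sided permutation within genotypes over 8 such relations. Without B1/P tumors 1 and 2, the farthest from the median in the markers, r was 0.52 with an adjusted permutation p of 0.14, so the relation no longer passed. It also missed the threshold without B1/P/Rbf tumor 4, without P/Rbf tumor 1 or without any of B1/P tumors 1, 2 and 3, with r between 0.551 and 0.695 over all libraries left out in turn. For Lcn2 and the same markers r was 0.57 (rho 0.54, adjusted permutation p = 0.069 and 0.14) and 0.37 without those tumors, and it passed without B1/P/Rbf tumor 1, 2 or 3 or P/Rbf tumor 3 (adjusted permutation p from 0.019 to 0.049). The points share library preparation and depth, and the part of neutrophils in the levels was not tested.

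**Figure D4:**
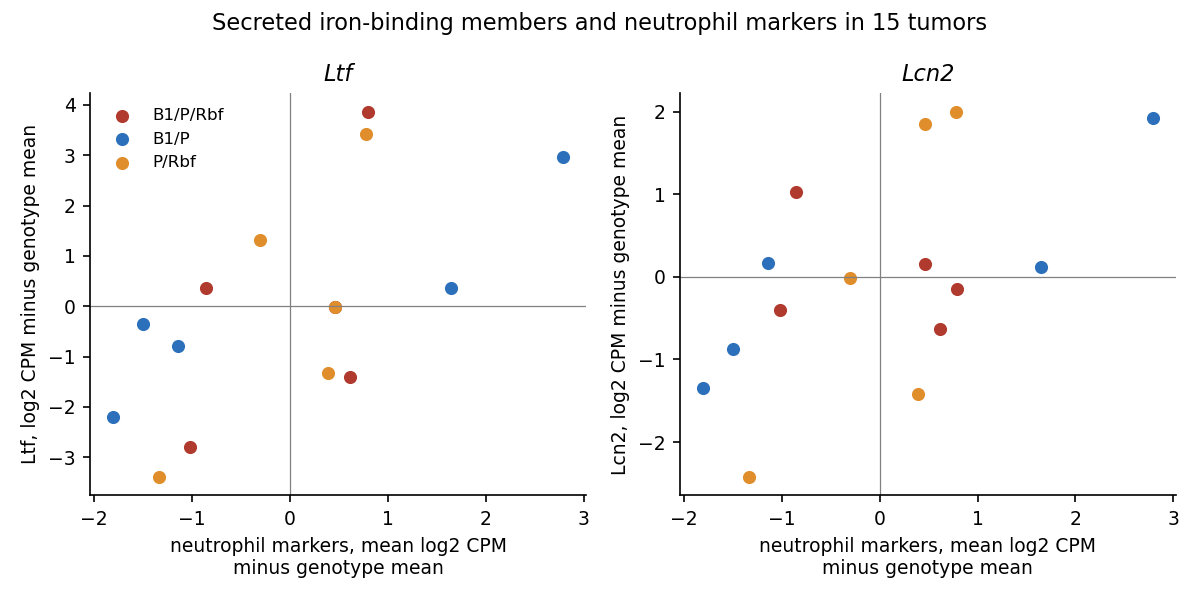
Ltf (left) and Lcn2 (right), as log2 CPM minus the mean of the tumor's genotype (y axis), against the mean log2 CPM of neutrophil markers minus its genotype mean (x axis), for 15 tumors colored by genotype. The rightmost point is B1/P tumor 2; r is 0.65 for Ltf and 0.57 for Lcn2.

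Lbp, at chr2:158306493-158332852 on the plus strand, was at 28.3, 137, 297, 3.63 and 3.73 CPM in B1/P/Rbf tumors and at 38.0, 55.8, 211, 83.2 and 78.2 CPM in B1/P tumors. P/Rbf tumors had 0.546, 16.5, 1.16, 43.9 and 9.33 CPM and glands 10.6, 13.2 and 14.4 CPM. All B1/P tumors were above all glands, 4 of 5 P/Rbf tumors were below all B1/P tumors, and B1/P/Rbf tumors fell into tumors 2 and 3 at 137 CPM or more, tumors 4 and 5 at 3.73 CPM or less and tumor 1 between. The log2 fold changes of -2.70 ± 1.14 in P/Rbf against B1/P (adjusted p = 0.10) and 2.87 ± 1.42 in B1/P against gland (adjusted p = 0.13) were not called by edgeR with all groups fitted. DESeq2 called both (adjusted p = 0.031 and 0.035), and edgeR called the former with scaling to epithelial markers (0.00083) and the latter with only those groups fitted (0.0049). In B1/P/Rbf DESeq2 called Lbp higher than in glands (2.87, adjusted p = 0.032, against 2.88 and 0.12 by edgeR), and with scaling to epithelial markers edgeR called it lower than in B1/P (-2.94, adjusted p = 0.031). Lcn2 and Lbp deviated in the same direction within genotypes with r of 0.59 and rho of 0.58, which did not pass the threshold (adjusted permutation p = 0.069 and 0.14), though r did without B1/P/Rbf tumor 1 or 3 (0.049 and 0.046).

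Cd14, on the minus strand of chromosome 18, was at 192, 196, 150, 45.0 and 79.5 CPM in B1/P/Rbf tumors. B1/P tumors had 28.5, 546, 37.2, 25.1 and 45.6 CPM, and P/Rbf tumors 106, 24.3, 54.1, 42.6 and 195 CPM. Glands had 50.5, 43.1 and 50.8 CPM. The B1/P mean of 136 ± 229 CPM (SD) rests on tumor 2, since the other B1/P tumors were at 45.6 CPM or less. The log2 fold change of B1/P/Rbf against B1/P was -0.04 ± 0.79 with all tumors (adjusted p = 0.98). Without B1/P tumor 2 it was 1.96, and Cd14 was then called higher in B1/P/Rbf (adjusted p = 0.020). Cd14 was also called lower in P/Rbf against B1/P with scaling to epithelial markers (-2.46, adjusted p = 0.0028), where the median of all genes was -2.51. It was called higher in B1/P/Rbf against gland with only those groups fitted (1.44, adjusted p = 0.032). Macrophage markers summed to 3576 CPM in B1/P tumor 2 and to at most 1430 CPM in any other tumor. Among tumors of the same genotype, Cd14 and these markers gave r of 0.29 (rho 0.079, adjusted permutation p = 0.58 and 0.91), and -0.34 without B1/P tumor 2 and B1/P/Rbf tumor 3.

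Genes that work with these secreted proteins were counted against the same shares of all genes, 7.36% higher and 9.29% lower in B1/P/Rbf and 8.43% higher and 10.8% lower in P/Rbf against B1/P. Of 13 genes of endotoxin recognition edgeR called none between tumor groups, but without B1/P tumor 2 Tlr4 and the adaptor Tirap were called higher in both groups with T121, and DESeq2 called Tlr4 in both. With scaling to epithelial markers 10 and 11 of them were called lower, where 75.1% and 84.1% of all genes were. Tlr4 had means of 11.3 CPM in B1/P, 26.4 CPM in P/Rbf and 26.3 CPM in the triple model (adjusted p = 0.052 and 0.058 against B1/P). Of 15 acute phase genes, Hp, the hemoglobin scavenger haptoglobin, rose in B1/P/Rbf against B1/P (from 218 CPM, log2 fold change 2.47, adjusted p = 0.042). This call was lost without B1/P tumor 3, with the library-set term and with scaling to epithelial markers. Under that scaling 11 and 12 of the 15 were called lower, where 75.1% and 84.1% of all genes were. Cebpb and Cebpd, the C/EBP factors, fell in both groups with T121, Cebpb with log2 fold changes of -1.16 (adjusted p = 0.023) and -0.96 (adjusted p = 0.049) and Cebpd of -2.13 (adjusted p = 0.014) and -1.96 (adjusted p = 0.018). With the library-set term only Cebpd in B1/P/Rbf was still called of these, and without B1/P tumor 3 Cebpb in P/Rbf was not (adjusted p = 0.075). Of 9 genes of iron and siderophore handling, 2 and 3 fell, among them Fth1, the ferritin heavy chain (1267 CPM in B1/P, 453 and 435 CPM in B1/P/Rbf and P/Rbf). With the library-set term 2 fell in B1/P/Rbf (6.92% of all genes) and 1 rose and none fell in P/Rbf (3.22% and 7.24%). Scaled to epithelial markers 8 fell in each, where 75.1% and 84.1% of all genes did. Of 9 further genes known from luminal progenitors, Wfdc18, which encodes a small secreted protein of the mammary gland, fell from 271 CPM in B1/P to 3.66 and 2.87 CPM (log2 fold change -6.21, adjusted p = 0.0025, and -6.56, adjusted p = 0.0021), and Plet1 rose in P/Rbf tumors (71.1 to 507 CPM, 2.83, adjusted p = 0.043), a call lost without B1/P tumor 3 (0.083), with the library-set term (0.072) and with scaling to epithelial markers (0.45). Of the other 7, edgeR with all libraries and TMM called none between tumor groups. Without B1/P tumor 3 edgeR called 2 of the 9 lower in both groups with T121 than in B1/P, and without TMM 2 lower in P/Rbf. DESeq2 called Slpi higher in P/Rbf than in B1/P (adjusted p = 0.043) and than in B1/P/Rbf (0.00014) and Mfge8 lower in both groups with T121 than in B1/P (0.039 and 0.047). With scaling to epithelial markers 6 of the 9 genes were called lower in each of the comparisons with B1/P, where 75.1% and 84.1% of all genes were.

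On a scale per length, TPM, the order of the 10 genes changed with the group. By median TPM, Lcn2 came first in the tumors of each genotype, at 407 in B1/P/Rbf, 882 in B1/P and 365 in P/Rbf tumors, and Ltf came first in glands, at 108. Sox10 was second in B1/P tumors, at 516 TPM, and last in both groups with T121, at 0.20 and 0.094 TPM. Prom1 was last in B1/P tumors, at 8.74 TPM, and the third in B1/P/Rbf tumors, at 117 TPM. In each tumor genotype the TPM ranges of all 9 pairs of neighbours in these orders overlapped, and in glands 4 of 9 pairs did not, those of Ltf and Lcn2, Lcn2 and Cd14, Cd14 and Aldh1a3, and Ehf and Elf5.

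Members whose values did not overlap between groups were counted beside all genes. Against B1/P, 2 of 10 did not overlap in B1/P/Rbf (all genes 10.5%) and 2 of 10 in P/Rbf (all genes 8.86%), and between B1/P/Rbf and P/Rbf none did (all genes 3.02%). Against gland the counts were 3 in B1/P/Rbf (50.5%), 6 in B1/P (41.4%) and 3 in P/Rbf (46.5%). Within genotypes the members were more variable than a gene of median spread. Their SDs of log2 CPM ran from 0.64 to 2.90 in B1/P/Rbf tumors, from 0.73 to 1.90 in B1/P tumors and from 1.12 to 3.37 in P/Rbf tumors, against medians over all genes of 0.52, 0.63 and 0.58.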

How the data were processed

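Libraries of stranded mRNA were pooled and sequenced in pairs of reads. The authors trimmed reads with Cutadapt 1.18 and deposited RSEM 1.3.0 expected counts per gene, neither normalized nor filtered; 5.61% of all values, zeros included, are not exact whole numbers, since RSEM divides reads among genes. All of the 55450 gene identifiers are from GENCODE M21 (GRCm38), although the reference stated in the methods is human. The genes and all gene lists were chosen with earlier results of these data known, so counts over them are descriptions.

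Counts were rounded and fitted with edgeR 4.0.16 (R 4.3.3; TMM, filterByExpr with a minimum count of 10, glmQLFit, glmQLFTest) over all 18 samples with a term for the group alone, in 6 comparisons. The SE of a log2 fold change is its size divided by the square root of the F statistic. All 10 genes were named in every comparison. Of each list, at most the 3 genes of smallest adjusted p each way were named, and of marker lists those of high level or at the floor of 3 counts. Kitl, Sox9, Prom2, Tlr4, Tirap, Slpi, Mfge8 and some marker genes were named outside that rule, for their roles or for calls in other settings, after their values were seen. Alternatives were DESeq2 1.42.0, limma-voom 3.58.1 with quantile normalization, other scalings and filters, fewer groups, a term for 2 library sets, and leaving out each library. The fit was tested on simulated counts, but the outcome is not given here and no result rests on it. Correlations were computed in Python 3.11.15 with 100000 permutations within genotypes. P-values cover the spread between mice. The values of 1 marker gene are not reported here.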

Additional observations from a re-analysis of the deposited data

Results flagged for a closer look

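In 30 groups of 5 tumors (10 genes in 3 genotypes), 4 had a highest or lowest tumor whose gap to the nearest other, divided by the whole range, was above Dixon's critical value of 0.71; chance flags about 1 group in 20. Kit in P/Rbf tumor 5 was the highest of its group in log2 CPM (ratio 0.801; 87.3 CPM against at most 18.7 CPM in the others). Elf5 in B1/P tumor 3 was the lowest of its group (0.747, with 11.8 CPM against at least 49.2 CPM). That tumor had the lowest sum of epithelial markers and the highest sum of basal markers (815 and 2301 CPM). Cd14 in B1/P tumor 2 was the highest of its group (0.807; 546 CPM against at most 45.6 CPM), and Sox10 in the same tumor was the lowest (0.729; 164 CPM against at least 428 CPM). That tumor also had the highest summed macrophage and neutrophil markers of all 15 tumors, 3576 and 544 CPM. What sets these tumors apart was not tested.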

How the results depend on the processing

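No paired analysis was possible because the labels give the groups no shared replicate numbers. Depth limits only the lowest levels, such as Sox10 in tumors with T121, where a library holds between 0 and 84 counts; elsewhere the spread of 5 tumors or 3 glands sets the precision. The causes of the changes below were not tested, except that fewer genes or samples entered 2 of the settings. Sox10 and Prom1 in B1/P/Rbf against B1/P, Sox10 and Kit in P/Rbf against B1/P, and Sox10 in P/Rbf against gland kept their direction and call wherever they were tested. Without a filter no member changed. Scaling to epithelial markers moved the median log2 fold change of all genes by -2.04, -2.46, 0.43, -1.47, 0.56 and -1.91 in comparisons A to F, so its values are relative to that shift. Letters stand for the comparison with B1/P of B1/P/Rbf (A) and of P/Rbf (B), of the 2 models with T121 with each other (C), and with gland of B1/P/Rbf (D), B1/P (E) and P/Rbf (F). Without TMM the medians ran from -0.13 to 0.47.

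DESeq2 called 4, 5, 2 and 4 members in A to D, and 1026 genes in C. With only the groups compared, 1763 genes were called in B and 0 in C, 4 members in D and 6 in E, and Cd14 in A was 0.0025. Without TMM, Lbp in A was -0.020. With the library-set term, 2008, 5 and 3879 genes were called in B, C and D, and 0 members in D. Under that term Lbp in A was -0.11, Cd14 was 1.26, -1.88, -1.07 and -0.44 in B to E, Lcn2 in B was 0.024, and Aldh1a3 was -0.044 and -0.14 in D and E. Under limma-voom, 26 genes were called in C and 2 members in D. There Aldh1a3 was -0.051, -0.43 and -0.37 in A, D and E, Cd14 0.97 and 0.059 in A and B, Lbp -1.42 and -0.76 in A and F, Lcn2 0.35 in C, Kit -0.044 in D, and Ltf -1.24 and Prom1 -0.50 in F. With genes kept only at a log2 CPM of 6 or more in 6 or more samples, 4551 genes were tested and 886, 866, 3, 1760, 1600 and 1669 called, with 1, 0 and 1 of the 7 members tested in A, D and F. Aldh1a3 was then -0.034 and -0.25 in D and E and Ltf -0.040 in F. Scaled to epithelial markers, 14715, 16312, 34, 2940 and 11572 genes were called in A, B, C, E and F, and 7, 8 and 2 members in A, B and D. Aldh1a3 was then -1.01, -1.17 and -0.16 in A, D and E, Ltf -0.091 and -1.55 in A and F, Lbp -2.94 (called) and -1.67 in A and F, Ehf -1.60 (called) and -0.67 in B and D, Kit -0.66 in D, Cd14 -0.075 and -1.26 in D and F, and Prom1 -0.99 in F.

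Leaving out 1 library at a time gave 8 (without P/Rbf tumor 2) to 131 (without B1/P/Rbf tumor 4) genes called between B1/P/Rbf and P/Rbf, 1 to 2 members in B1/P/Rbf and 0 to 4 in B1/P against gland. Log2 fold changes that turned ran from -0.17 to 0.52 for Aldh1a3, -0.31 to 1.96 for Cd14, -0.52 to 3.36 for Ltf and -1.11 to 0.56 for Lbp in B1/P/Rbf against B1/P. In P/Rbf against B1/P they ran from -1.26 to 1.31 for Cd14, -1.21 to 0.11 for Lcn2 and -0.49 to 0.86 for Ehf. In B1/P/Rbf against P/Rbf they ran from -2.49 to 1.00 for Elf5, -1.53 to 2.87 for Sox10 and -3.34 to 0.55 for Ltf. Against gland they ran from -0.14 to 0.53 for Aldh1a3 in B1/P/Rbf, -0.28 to 0.31 for Aldh1a3 and -0.50 to 1.77 for Cd14 in B1/P, and -1.28 to 0.70 for Ltf and -0.89 to 0.56 for Lbp in P/Rbf. Correlations ran from 0.551 to 0.695 for Ltf and 0.417 to 0.652 for Lcn2 with neutrophil markers, -0.363 to 0.408 for Cd14 with macrophage, -0.677 to -0.450 for Kit with mast cell and -0.0293 to 0.373 for Sox10 with Schwann cell markers, -0.292 to 0.121 for Kit with Sox10 and 0.464 to 0.699 for Lcn2 with Lbp. Without the 2 tumors farthest on the x axis they were 0.517 for Ltf with neutrophil, -0.344 for Cd14 with macrophage and -0.0627 for Sox10 with Schwann cell markers and 0.330 for Kit with Sox10. Counts over gene lists under other settings were added after seeing the data. With the library-set term, 2 of the 12 ETS and alveolar genes rose in B in place of 8, 2 of 14 Kit signalling genes and 2 of 7 Schwann cell markers fell in A in place of 5 and 4, and 0 of 15 acute phase genes fell in B in place of 2. Scaled to epithelial markers, 13 and 14 of the 14 Kit signalling genes fell in A and B, where 75.1% and 84.1% of all genes fell.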
